A study of Mus musculus with 8 samples.

Results

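The RNA levels of 10 genes were followed in late 2-cell mouse embryos: the TEAD transcription factors Tead1, Tead2, Tead3 and Tead4, the coactivators Yap1 and Wwtr1 (which encodes TAZ), the AP-2 factors Tfap2a and Tfap2c, and the trophectoderm regulators Gata3 and Cdx2. They were taken by symbol, as 10 of the 38406 gene symbols in the deposited expression table, and the 60 transcript rows that carry these symbols were summed per gene. The tested embryos, called Med13-MO, were CF-1 embryos injected at the early 1-cell stage with a morpholino against Med13, and the control embryos, called Scr-MO, were CF-1 embryos injected at the same stage with a scrambled morpholino. Both groups were collected at the late 2-cell stage as 4 independent pools of 40 embryos, which gave 8 libraries. Genotype and embryo age beyond the stage are not described further in the labels, and both groups share the injection itself. By the study's title, the comparison concerns MED13, which belongs to the kinase module of Mediator, the bridge between transcription factors and RNA polymerase II, and the start of transcription from the embryo's own genome.

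TEAD proteins bind DNA but activate transcription poorly alone, and depend on YAP1 or TAZ, which enter the nucleus when the Hippo kinases LATS1 and LATS2 are inactive. In the mouse morula, outer cells with active YAP1 and TEAD4 turn on Cdx2 and Gata3 and become trophectoderm, while inner cells retain YAP1 in the cytoplasm. TFAP2C and TFAP2A bind GC-rich sites and act in the trophoblast lineage, and Yap1 transcripts are already stored in the mouse egg.

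Of the 10 genes, Tead4 and Tead1 were lower in Med13-MO embryos, and the level of Tead4 was 49.99% of that in Scr-MO embryos. Yap1, Wwtr1, Tead2, Tfap2c and Gata3 did not pass the test. Tead3, Tfap2a and Cdx2 had a mean under 1 FPKM (fragments scaled by transcript length and library total), the lower limit for the main test. The comparison used limma, a linear model with a spread shared across genes, on log2(FPKM + 1) for 11755 genes, and a gene was called at a Benjamini-Hochberg adjusted p below 0.05. In that fit 2 of the 7 tested members were called, both lower, against 17.1% of all genes tested in either direction and 7.81% called lower. Tead2 and Gata3 averaged under 1 FPKM in Med13-MO embryos and reached the limit through the Scr-MO embryos. The median log2 fold change over all genes tested was -0.06. All means below are given with their SD over 4 libraries, and the replicates are separate collections, so p-values measure the spread between collections.

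**Figure D1:**
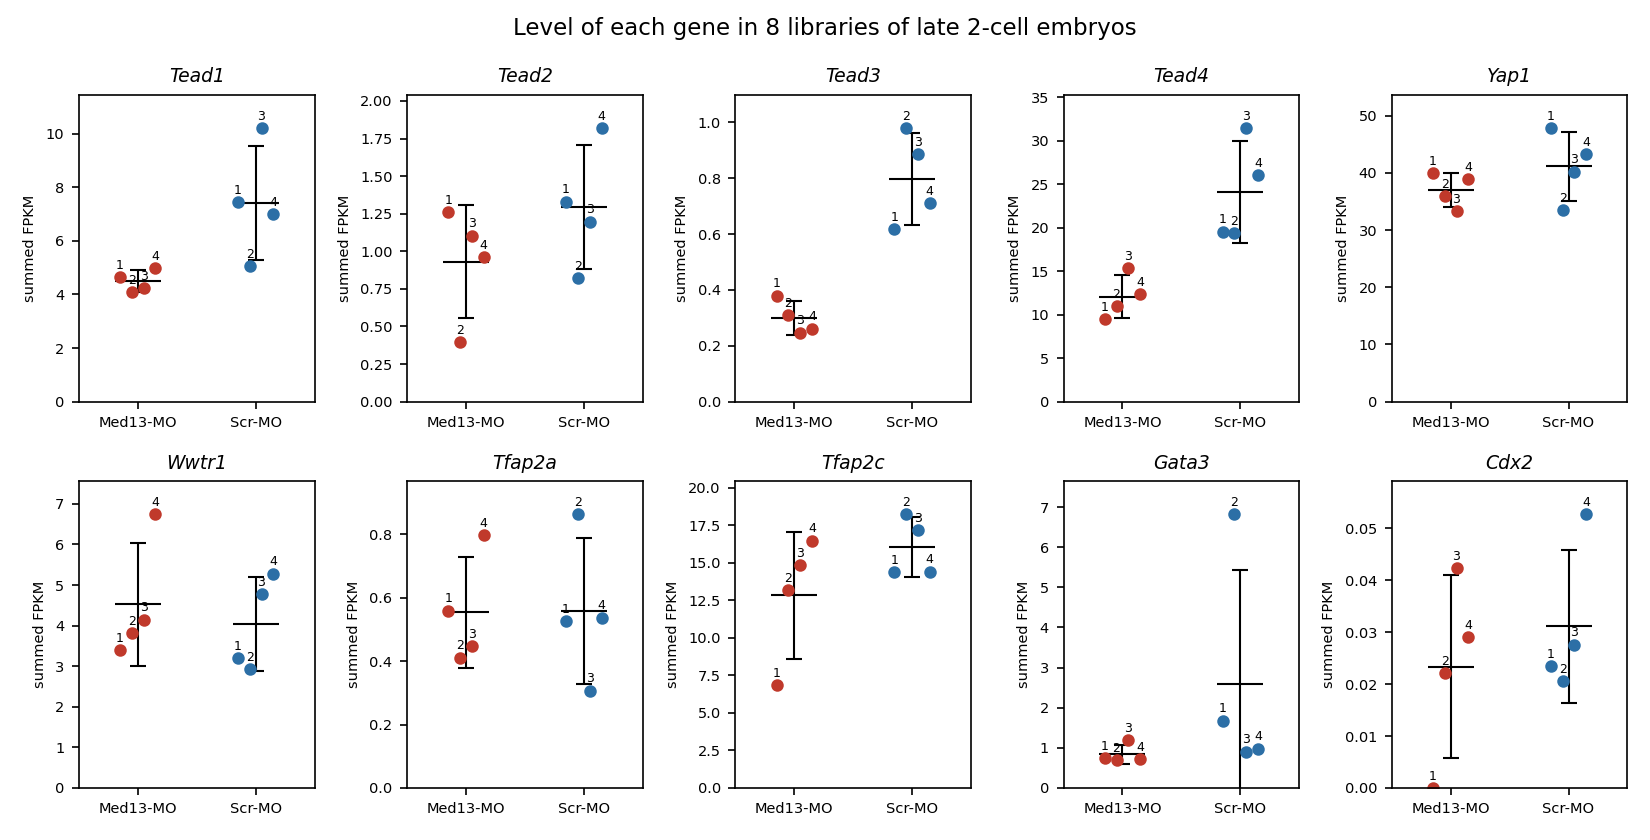
Summed FPKM of the 10 genes (vertical axes, each starting at 0) in the 4 Med13-MO libraries (red, left) and the 4 Scr-MO libraries (blue, right); numbers are replicate numbers, the long bar is the mean and the error bar is the SD. The groups are apart for Tead1, Tead3 and Tead4, with every Med13-MO library below every Scr-MO library, and 1 Scr-MO library stands far above the other 3 for Gata3 (the lower end of its error bar falls below 0).

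The libraries held 31378977 to 48050262 fragments, as read back from the low FPKM values. The targeted mRNA was not lower: Med13 had 42.2 ± 2.14 FPKM in Med13-MO embryos and 41.3 ± 4.31 FPKM in Scr-MO embryos (log2 fold change 0.03, two-sided exact permutation p = 0.629). A morpholino can block translation and leave the mRNA in place, and MED13 protein was not measured here. Genes typical of the 2-cell stage were abundant in both groups, with a summed level of the 12 markers of 718 to 913 FPKM in Med13-MO libraries and 591 to 724 FPKM in Scr-MO libraries. Of the 11 of them that were tested, 5 were called higher and 1 lower, against 9.29% of all genes called higher and 7.81% called lower. Sp110, the most abundant, had 407 FPKM in Med13-MO embryos and 388 FPKM in Scr-MO embryos. Zfp352 had 123 FPKM in Med13-MO embryos and 38.7 FPKM in Scr-MO embryos, while Dppa2 had 44.6 FPKM in Med13-MO embryos and 84.1 FPKM in Scr-MO embryos. The sum, in which Sp110 is the largest part, does not show these differences. Of the 12 cumulus and granulosa cell markers, 10 stayed below 1 FPKM in all 8 libraries. The exceptions were Amhr2, with 11.5 to 15.9 FPKM in Med13-MO libraries and 8.80 to 15.4 FPKM in Scr-MO libraries, and Tnfaip6, which passed 1 FPKM in Scr-MO library 2 alone (1.16 FPKM). The 12 oocyte markers summed to 378 to 490 FPKM in Med13-MO libraries and 106 to 129 FPKM in Scr-MO libraries, with 8 of the 11 tested called higher and 0 lower, against 9.29% of all genes called higher. The part of these marker differences in the results for the 10 genes was not tested.

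Tead4 (ENSMUSG00000030353, GRCm38 chromosome 6, 128224288 to 128300823, minus strand), the TEAD gene that mouse embryos need to form trophectoderm, was the most abundant of the family. Its summed level was 9.53, 11.02, 15.3 and 12.4 FPKM in Med13-MO libraries 1 to 4, against 19.5, 19.4, 31.5 and 26.1 FPKM in Scr-MO libraries 1 to 4. The highest Med13-MO library lay below the lowest Scr-MO library, and the call held in each of the 8 fits that left out 1 library. The means were 12.1 ± 2.47 FPKM in Med13-MO embryos and 24.1 ± 5.82 FPKM in Scr-MO embryos (log2 fold change -0.93 ± 0.20 SE, limma adjusted p = 0.00858). On the log2(FPKM + 1) scale the 95% interval ran from a fold of 0.389 to 0.704, and the exact permutation test gave its smallest possible two-sided p of 0.0286 over 70 assignments. Of the genes tested, 11.1% had groups as cleanly apart in the lower direction. Without Scr-MO library 3, the highest, the log2 fold change was -0.80 (limma adjusted p = 0.0282). Each library is a pool of embryos, so less Tead4 RNA in every embryo and fewer embryos carrying it cannot be told apart.

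All 5 transcript rows of Tead4 are protein-coding models, all 5 had a lower mean in Med13-MO embryos, and 4 of the 5 were called lower, against 7.57% of the 21052 rows tested (15.7% in either direction). The longest model, Tead4-201 with 12 exons and 3076 bases, had 3.59 ± 0.907 FPKM in Med13-MO embryos and 7.64 ± 2.23 FPKM in Scr-MO embryos (limma adjusted p = 0.0116). These values stood for 312.5 to 512 fragments per Med13-MO library and 720.5 to 1531.5 per Scr-MO library. Tead4-203, another 12-exon model, had 3.81 ± 0.529 FPKM in Med13-MO embryos and 7.25 ± 1.27 FPKM in Scr-MO embryos (limma adjusted p = 0.00725). The short model Tead4-204, with 3 exons, was the exception: it had 1.17 ± 0.440 FPKM in Med13-MO embryos and 1.64 ± 0.350 FPKM in Scr-MO embryos, with overlapping groups (limma adjusted p = 0.217). Isoforms share exons, so these rows are not independent measurements.

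Tead1 (ENSMUSG00000055320, chromosome 7, 112679318 to 112906807, plus strand), a widely expressed TEAD gene, was called lower in the main fit, a call that depended on how the gene was measured. Its summed level was 4.65, 4.07, 4.23 and 4.98 FPKM in Med13-MO libraries and 7.43, 5.04, 10.2 and 7.003 FPKM in Scr-MO libraries. The groups did not overlap, although Scr-MO library 2 stood only just above Med13-MO library 4. The means were 4.48 ± 0.411 FPKM in Med13-MO embryos and 7.42 ± 2.13 FPKM in Scr-MO embryos (log2 fold change -0.59 ± 0.19 SE, limma adjusted p = 0.0466; exact permutation p = 0.0286). Of its 14 rows, 13 had a lower mean in Med13-MO embryos, but only 2 were abundant enough to test and 0 of those were called (at an unadjusted p under 0.05 both were lower). Summed over its protein-coding rows alone, Tead1 had 3.71 ± 0.314 FPKM in Med13-MO embryos and 5.76 ± 1.96 FPKM in Scr-MO embryos, the groups overlapped through Scr-MO library 2, and the call was lost (limma adjusted p = 0.123). The call was also lost in 7 of 8 fits with 1 library omitted, with adjusted p up to 0.142 without Scr-MO library 3.

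Tead2 (ENSMUSG00000030796, chromosome 7, 45215753 to 45233644, plus strand), a TEAD gene of early mouse embryos, was near the lower limit of the test. Its summed level was 1.26, 0.395, 1.10 and 0.962 FPKM in Med13-MO libraries and 1.33, 0.822, 1.20 and 1.82 FPKM in Scr-MO libraries. The groups overlapped, and the log2 fold change was -0.25 ± 0.18 SE (limma adjusted p = 0.358, 95% interval of the fold 0.637 to 1.10). Its most abundant row under that symbol is not annotated as Tead2: ENSMUST00000123130 lies on chromosome 7 at 44883825 to 44884671, minus strand, and GENCODE M21 gives it to Med25, a Mediator subunit gene. That row had 0.325 ± 0.244 FPKM in Med13-MO embryos and 0.735 ± 0.332 FPKM in Scr-MO embryos. Without it Tead2 had 0.606 ± 0.249 FPKM in Med13-MO embryos and 0.558 ± 0.107 FPKM in Scr-MO embryos, and the log2 difference turned to 0.03 (exact permutation p = 0.857). It was the only 1 of the 60 rows that the annotation gives to another gene, and 7 of the 60 rows are not in that release.

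Tead3 (ENSMUSG00000002249, chromosome 17, 28331671 to 28350817, minus strand), the TEAD gene known from placenta, was below the limit of the main test. Its summed level was 0.379, 0.310, 0.248 and 0.262 FPKM in Med13-MO libraries and 0.617, 0.981, 0.886 and 0.711 FPKM in Scr-MO libraries. The groups were apart, as in 2.87% of the genes under 1 FPKM in the lower direction and 6.45% in either direction, with means of 0.300 ± 0.0595 FPKM in Med13-MO embryos and 0.799 ± 0.165 FPKM in Scr-MO embryos. In a fit with no lower limit over 34976 genes, where 2.89% were called, the log2 fold change was -0.47 ± 0.10 SE and the limma adjusted p was 0.0507, just above the threshold. Almost all of the difference lay in 1 row, the retained-intron model Tead3-202, which had 0.0808, 0.113, 0.120 and 0.206 FPKM in Med13-MO libraries and 0.440, 0.892, 0.759 and 0.425 FPKM in Scr-MO libraries. The protein-coding rows of Tead3 summed to 0.0742 ± 0.0390 FPKM in Med13-MO embryos and 0.0866 ± 0.0296 FPKM in Scr-MO embryos, and these groups overlapped.

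Rows annotated as retained introns, which keep an intron that the coding models splice out, were looked at across the 10 genes after the Tead3 values had been seen. The members have 6 such rows, and the 4 with a mean of at least 0.1 FPKM all had a lower mean in Med13-MO embryos. In 3 of those 4 every Med13-MO library lay below every Scr-MO library, against 9.1% of the 9648 retained-intron rows at that level. These 3 include Tead3-202, the row that prompted the look, so the contrast with that share is not a test. Beside Tead3-202 these were Tead1-214, with 0.368 ± 0.171 FPKM in Med13-MO embryos and 0.770 ± 0.309 FPKM in Scr-MO embryos, and Yap1-208. Yap1-208 had 1.24, 1.52, 1.40 and 1.25 FPKM in Med13-MO libraries and 1.76, 1.81, 2.21 and 2.02 FPKM in Scr-MO libraries, and it was not called (log2 fold change -0.33 ± 0.12 SE, limma adjusted p = 0.0853). Over all genes, the 2788 tested retained-intron rows had a median log2 fold change of -0.15, with 67.9% below 0. The 12647 tested protein-coding rows had a median of -0.06, with 56.6% below 0.

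**Figure D2:**
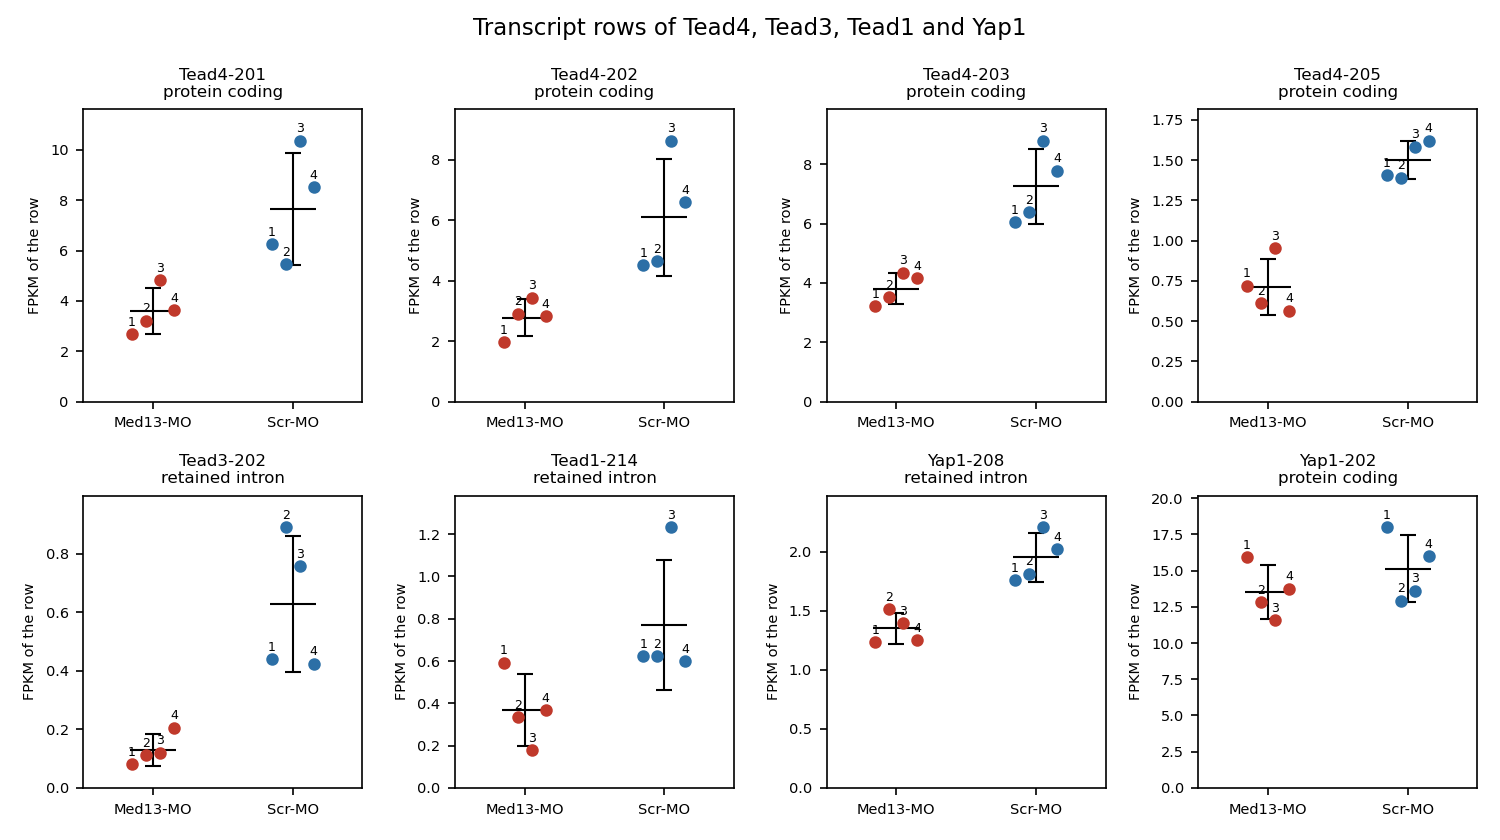
FPKM of 8 single transcript rows (vertical axes, each starting at 0) in Med13-MO libraries (red, left) and Scr-MO libraries (blue, right), with replicate numbers, means and SD bars. The 4 Tead4 coding rows and the retained-intron rows of Tead3, Tead1 and Yap1 shown here have every Med13-MO library below every Scr-MO library. The coding row Yap1-202 has 11.6 to 15.9 FPKM in Med13-MO libraries and 12.9 to 18.0 FPKM in Scr-MO libraries. The other coding row of Tead4 and the other retained-intron rows of Tead1 and Tead3 overlap between the groups and are not shown. Of the 21052 rows tested, 11.2% had groups as cleanly apart in the lower direction.

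As a family, the 4 TEAD genes summed to 17.8 ± 2.46 FPKM in Med13-MO embryos and 33.6 ± 7.84 FPKM in Scr-MO embryos. Tead4 made up 67.5 ± 5.54% of that sum in Med13-MO embryos and 71.6 ± 2.84% in Scr-MO embryos. By the most abundant row of each gene, its share was 72.5 ± 5.41% in Med13-MO embryos and 72.5 ± 3.95% in Scr-MO embryos. Both measures include the Tead2 row annotated to Med25, and sums over overlapping rows can count a fragment more than once. The log2 ratio of Tead4 to Tead1 was 1.41 ± 0.341 in Med13-MO embryos and 1.71 ± 0.255 in Scr-MO embryos. That difference of -0.30 did not pass (two-sided exact permutation p = 0.2, adjusted p = 0.429 over 3 ratios), so a larger fall of Tead4 than of Tead1 was not shown. None of the 4 was called higher.

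Neither coactivator gene was called in the main fit or under any alternative. Yap1 (ENSMUSG00000053110, chromosome 9, 7931999 to 8004596, minus strand), the main coactivator of TEAD factors, was the most abundant of the 10 genes. It had 40.0, 35.9, 33.3 and 38.9 FPKM in Med13-MO libraries and 47.9, 33.5, 40.2 and 43.2 FPKM in Scr-MO libraries. The groups overlapped, with means of 37.0 ± 3.003 FPKM in Med13-MO embryos and 41.2 ± 6.02 FPKM in Scr-MO embryos (log2 fold change -0.14 ± 0.16 SE, limma adjusted p = 0.570). The 95% interval of the fold, 0.715 to 1.15, lies above the Tead4 estimate, and the difference between these genes was not tested. Its 3 protein-coding rows summed to 28.2 ± 3.23 FPKM in Med13-MO embryos and 31.4 ± 4.98 FPKM in Scr-MO embryos, again with overlapping groups.

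Wwtr1 (ENSMUSG00000027803, chromosome 3, 57455649 to 57575910, minus strand), which encodes the YAP1 paralogue TAZ, had 3.39, 3.81, 4.15 and 6.75 FPKM in Med13-MO libraries and 3.20, 2.93, 4.78 and 5.28 FPKM in Scr-MO libraries. Med13-MO library 4 was the highest of all 8, and the other 3 lay within the Scr-MO range. The log2 fold change was 0.12 ± 0.21 SE (limma adjusted p = 0.723, 95% interval of the fold 0.790 to 1.503), and it was -0.05 without Med13-MO library 4 (adjusted p = 0.876). Yap1 held 89.2 ± 2.96% of the summed Yap1 and Wwtr1 level in Med13-MO embryos and 91.0 ± 2.21% in Scr-MO embryos. The log2 ratio of Yap1 to Wwtr1 differed by -0.30 (exact permutation p = 0.371, adjusted p = 0.429 over 3 ratios).

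Promoter sequence is shown for the TEAD and coactivator genes because they belong to the circuit that TEAD factors read. RefSeq promoter windows of GRCm38.p6, from 250 bases before to 50 after the start site, were at hand for 7 of the 10 genes in 11 windows, and not for Tead1, Tead4 and Tfap2c. The core letters of the TEAD site, CATTCC or GGAATG on the other strand, were in 5 of the 11 windows, against 14.7% of all 32851 windows, and in 3 of the 7 genes, against 16.6% of all 27025 genes with a window. Both Wwtr1 windows overlap and hold the same site, and the 3 Tead3 windows overlap in part, so these windows are not independent. These genes are Yap1, Wwtr1 and Tead3, all on the minus strand and printed 5′ to 3′ in the direction of the gene, with the core in capitals. Tead3 also held the core at chr17:28350701-28350722 and chr17:28350585-28350606, which are not printed. A match of letters is a description and not a bound site.
Yap1, chr9:8004724-8004745: agtctgcaGGAATGtagcgacg
Wwtr1, chr3:57576033-57576054: aactcaaaGGAATGcagatagg
Tead3, chr17:28350974-28350995: acgagcgaGGAATGgggtgcgc
Tead3, chr17:28350710-28350731: gccgggctCATTCCgtacattc

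Tfap2c (ENSMUSG00000028640, chromosome 2, 172549593 to 172558622, plus strand), the AP-2 gene of the early mouse embryo and trophoblast, had 6.83, 13.2, 14.8 and 16.5 FPKM in Med13-MO libraries and 14.4, 18.3, 17.2 and 14.4 FPKM in Scr-MO libraries. Med13-MO library 1 was the lowest of the 8, and libraries 3 and 4 lay within the Scr-MO range. The means were 12.8 ± 4.22 FPKM in Med13-MO embryos and 16.1 ± 1.97 FPKM in Scr-MO embryos (log2 fold change -0.36 ± 0.23 SE, limma adjusted p = 0.303, 95% interval of the fold 0.552 to 1.10). Without Med13-MO library 1 the remaining 3 Med13-MO libraries averaged 14.8 ± 1.65 FPKM and the log2 fold change was -0.11 (adjusted p = 0.704). All 6 of its rows had a lower mean in Med13-MO embryos, and 0 of the 5 tested were called.

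Tfap2a (ENSMUSG00000021359, chromosome 13, 40715302 to 40738376, minus strand), the AP-2 gene of epidermis and neural crest that is also active in trophectoderm, was low. Its level was 0.560, 0.411, 0.447 and 0.798 FPKM in Med13-MO libraries and 0.526, 0.864, 0.307 and 0.538 FPKM in Scr-MO libraries. The Med13-MO values lay inside the range of the Scr-MO values. The means were 0.554 ± 0.175 FPKM in Med13-MO embryos and 0.559 ± 0.230 FPKM in Scr-MO embryos (limma with no lower limit, adjusted p = 0.999). Predicted genes on the other strand share 14.6% of its exonic bases, and no source used here says whether the counting used strand. Tfap2c held 95.5 ± 2.17% of the summed level of the pair in Med13-MO embryos and 96.6 ± 1.16% in Scr-MO embryos.

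Gata3 (ENSMUSG00000015619, chromosome 2, 9857078 to 9890034, minus strand), a zinc-finger factor that acts beside CDX2 in trophectoderm, had 0.745, 0.690, 1.19 and 0.709 FPKM in Med13-MO libraries and 1.67, 6.82, 0.905 and 0.9755 FPKM in Scr-MO libraries. A single Scr-MO library, number 2, carried most of the gap between the means, and Med13-MO library 3 lay above Scr-MO libraries 3 and 4. Some markers of other cell types were also highest in that library, 8 of the 24 listed for cumulus and granulosa cells, blood and oviduct or other epithelium. Among them were Pax8, with 2.04 FPKM there, against 0.473 to 0.686 FPKM in Med13-MO libraries and 0.614 to 0.893 FPKM in the other 3 Scr-MO libraries, and Ptprc, with 1.122 FPKM there, against 0.427 to 0.5003 FPKM in Med13-MO libraries and 0.535 to 0.597 FPKM in the other 3 Scr-MO libraries. The granulosa cell genes Foxl2, Fshr and Amh were at 0 in it, but also in Med13-MO library 1. None of these genes passed 0.0526 FPKM in any of the 8 libraries, so their zeros say little about Scr-MO library 2. The part of these markers in the Gata3 result was not tested. The means were 0.835 ± 0.241 FPKM in Med13-MO embryos and 2.59 ± 2.84 FPKM in Scr-MO embryos (log2 fold change -0.71 ± 0.36 SE, limma adjusted p = 0.191). Without Scr-MO library 2 the other 3 Scr-MO libraries averaged 1.18 ± 0.425 FPKM, and the log2 fold change, from the fit with no lower limit, was -0.24 (limma adjusted p = 0.463). In Scr-MO library 2 the signal lay in the protein-coding row Gata3-201, with 924.5 fragments, against 79.5 to 161 fragments in each of the other 7 libraries. Of its exonic bases, 5.83% overlap other annotated genes, 1 of them on the other strand.

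Cdx2 (ENSMUSG00000029646, chromosome 5, 147300805 to 147307270, minus strand), the homeobox factor that fixes trophectoderm fate, was at the edge of detection. Its single row stood for 0, 2, 3 and 3 fragments in Med13-MO libraries and 2, 2, 3 and 4 fragments in Scr-MO libraries. That is 8 fragments in all Med13-MO libraries and 11 in all Scr-MO libraries, at most 0.0423 FPKM in any Med13-MO library and at most 0.0527 FPKM in any Scr-MO library. The count of 0 allows up to 3 fragments, or 0.0351 FPKM, in Med13-MO library 1, for counting error alone, and amplified fragments without molecular identifiers are not independent molecules. A difference in Cdx2 was not detectable at this depth.

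The AP-2 letters GCCNNNGGC, which read the same on both strands apart from the free middle bases, were in 6 of the 11 windows, against 16.6% of all windows, and in 5 of the 7 genes, against 18.5% of all genes with a window. These letters are rich in G and C, and 10 of the 11 windows held 57.3% to 75.3% GC, against a median of 52.7% over all windows; the part of GC content in these shares was not tested. They are shown for the trophectoderm regulators, again in the direction of the gene on the minus strand, with the match in capitals. The Gata3 window also held matches at positions -246 and -231 from the start site, which are not printed.
Gata3, chr2:9878805-9878829: cctaggcgGCCCTTGGCggcgcccc
Cdx2, chr5:147307249-147307273: cacgtaagGCCGCTGGCctgggact

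**Figure D3:**
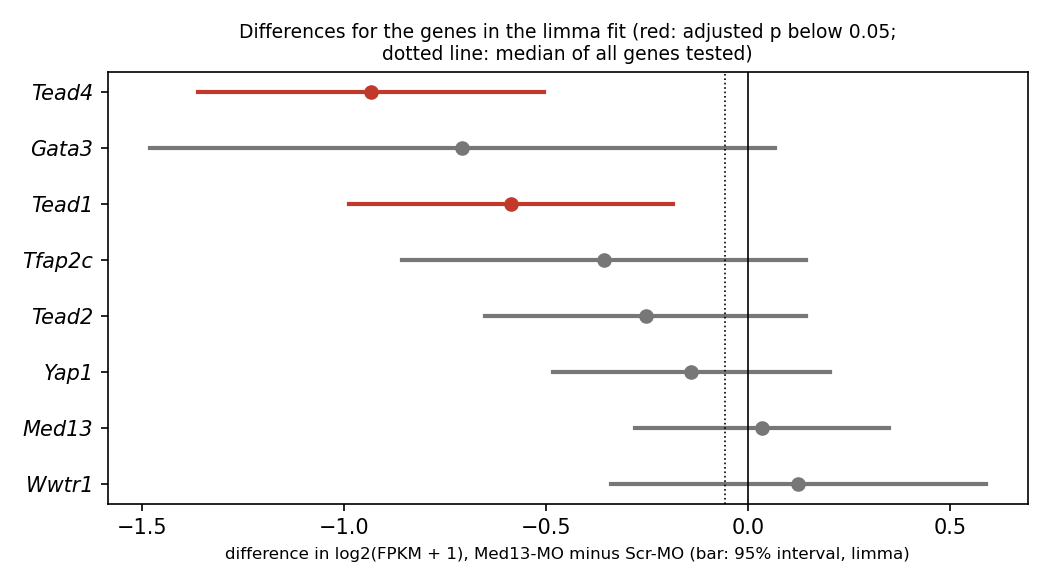
Difference in log2(FPKM + 1), Med13-MO minus Scr-MO (horizontal axis), for the 7 members in the main fit and Med13; points are limma estimates, bars are 95% intervals, red marks an adjusted p below 0.05 and the dotted line is the median of all genes tested. The intervals of Tead4 and Tead1 lie below 0, and the other 6 include 0.

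Levels were compared between genes by the most abundant protein-coding row of each, since FPKM is per length and sums over many overlapping rows can count a fragment more than once. In Scr-MO embryos the order was Yap1 (15.1 ± 2.33 FPKM), Tead4 (7.64 ± 2.23), Tfap2c (3.71 ± 0.664), Gata3 (2.39 ± 2.87), Wwtr1 (2.12 ± 0.623), Tead1 (1.45 ± 0.416), Tfap2a (0.270 ± 0.124), Tead2 (0.146 ± 0.0937), Tead3 (0.0349 ± 0.00706) and Cdx2 (0.0311 ± 0.0147). Yap1, Tead4 and Tfap2c had ranges apart from their neighbours' there, except that the highest Gata3 library exceeded the Tfap2c values. The ranges of Gata3, Wwtr1 and Tead1 overlapped in turn, as did those of Tfap2a and Tead2, and of Tead3 and Cdx2. The place of Gata3 rests on Scr-MO library 2: the other 3 Scr-MO libraries averaged 0.962 ± 0.319 FPKM in that row, below the means of Wwtr1 and Tead1. In Med13-MO embryos Yap1 again came first at 13.5 ± 1.83 FPKM, but Tead4, at 2.69 to 4.82 FPKM over the 4 libraries, overlapped the ranges of Tfap2c, 1.58 to 3.37 FPKM, and Wwtr1, 1.72 to 3.63 FPKM.

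No gene of the Hippo kinase cascade and no other TEAD cofactor was called in the main fit. Of 27 listed Hippo kinases and scaffolds, 19 were tested and 0 were called by limma, against 17.1% of all genes tested. Of the 19, 2 had an unadjusted p under 0.05. Voom on fragments called 2 of the list, and 2089 genes in all. The median log2 fold change of the 19 was -0.01. The most abundant of them were Nf2, an upstream tumour suppressor, with 19.7 ± 4.08 FPKM in Med13-MO embryos and 23.6 ± 4.00 FPKM in Scr-MO embryos, and Wwc2, a scaffold of the LATS kinases, with 21.7 ± 3.36 FPKM in Med13-MO embryos and 17.8 ± 2.21 FPKM in Scr-MO embryos. The kinase gene Lats1 had 1.81 FPKM in Med13-MO embryos and 2.18 FPKM in Scr-MO embryos, and Lats2, under the limit of the test, had 0.410 FPKM in Med13-MO embryos and 0.842 FPKM in Scr-MO embryos. Of 7 other TEAD cofactors, 3 were tested, 0 were called by limma, against 17.1% of all genes, and 1 had an unadjusted p under 0.05. That was the coactivator Ncoa2, with 15.2 ± 0.840 FPKM in Med13-MO embryos and 11.2 ± 1.77 FPKM in Scr-MO embryos (adjusted p = 0.0758).

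No tested target gene of YAP and TEAD was called lower, against 7.81% of all genes, but only 8 were tested. Of 22 listed, 14 were under the limit, among them Ctgf and Ankrd1, which had at most 0.119 FPKM and 0.0943 FPKM in any of the 8 libraries. Of these 14, 2 were lower in Med13-MO embryos without overlap, Igfbp3 and F3, and 0 were higher. Their values are given under the other observations. Among all genes under 1 FPKM, 2.87% were apart in the lower direction. Of the 8 tested, 2 were called and both were higher, against 9.29% of all genes, and the median log2 fold change was -0.01. Tgfb2, a secreted growth factor, had 17.5 ± 5.21 FPKM in Med13-MO embryos and 6.94 ± 1.20 FPKM in Scr-MO embryos (log2 fold change 1.20 ± 0.20 SE, limma adjusted p = 0.00238). Fgf1, another secreted growth factor, had 11.01 ± 1.58 FPKM in Med13-MO embryos and 5.71 ± 1.35 FPKM in Scr-MO embryos (log2 fold change 0.85 ± 0.18 SE, limma adjusted p = 0.00756). Both were called in each of the 8 fits that left out 1 library. Birc5, an inhibitor of cell death, had 40.2 FPKM in Med13-MO embryos and 53.9 FPKM in Scr-MO embryos and was not called (limma adjusted p = 0.0857). Every Med13-MO library lay below every Scr-MO library for Birc5, as for 11.1% of all genes tested.

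Of the 31 genes reported here that mark the trophectoderm at later stages, 17 were under the limit and 14 were tested. Of these 14, 0 were called by limma, against 17.1% of all genes tested, and 1 had an unadjusted p under 0.05. Voom on fragments called 0 of the list, and 2089 genes in all. The median log2 fold change of the 14 was -0.0050. The water channel gene Aqp9 had 15.9 ± 1.55 FPKM in Med13-MO embryos and 17.1 ± 3.08 FPKM in Scr-MO embryos. The tight junction gene Tjp1 had 10.01 ± 1.31 FPKM in Med13-MO embryos and 11.8 ± 1.901 FPKM in Scr-MO embryos. The 7 blastocyst trophectoderm markers, which include Gata3 and Cdx2, summed to 3.17 to 5.72 FPKM in Med13-MO libraries and 6.33 to 10.4 FPKM in Scr-MO libraries, but 0 of the 2 tested, Gata3 and Hand1, were called by limma. Gata3 made up 6.82 of the 10.4 FPKM in Scr-MO library 2, and Hand1, a trophoblast transcription factor gene, 7.42 of the 10.2 FPKM in Scr-MO library 4. The other 5 markers summed to 1.39 to 2.78 FPKM in Med13-MO libraries and 1.10 to 2.85 FPKM in Scr-MO libraries, with overlapping groups.

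Among genes of apicobasal polarity and adhesion, through which cell position reaches the Hippo kinases in later embryos, 20 of 25 were tested and 4 were called, 1 higher and 3 lower. The polarity kinase gene Mark2 had 93.4 ± 17.5 FPKM in Med13-MO embryos and 33.1 ± 16.0 FPKM in Scr-MO embryos (log2 fold change 1.57 ± 0.29 SE, limma adjusted p = 0.00403). Crb3, an apical polarity gene, had 17.4 ± 3.04 FPKM in Med13-MO embryos and 28.6 ± 2.58 FPKM in Scr-MO embryos (limma adjusted p = 0.0140). Ctnnb1, which encodes beta-catenin, had 17.6 ± 4.11 FPKM in Med13-MO embryos and 27.4 ± 3.01 FPKM in Scr-MO embryos (limma adjusted p = 0.0352). Rock2, a kinase gene of the actin cytoskeleton, had 3.09 ± 0.361 FPKM in Med13-MO embryos and 5.12 ± 1.15 FPKM in Scr-MO embryos (limma adjusted p = 0.0362). Leaving out 1 library ended the call of Ctnnb1 in 5 fits, of Rock2 in 6 and of Crb3 in 1, the fit without Med13-MO library 2, and in none for Mark2. The list's share of calls, 4 of 20, was near the 17.1% of all genes.

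Of 10 AP-2, GATA and CDX relatives outside the set, 3 were tested and 1 was called, against 17.1% of all genes. Tfap2e, a further AP-2 gene, had 4.44 ± 0.757 FPKM in Med13-MO embryos and 1.53 ± 0.491 FPKM in Scr-MO embryos (log2 fold change 1.11 ± 0.17 SE, limma adjusted p = 0.00157). Its direction is opposite to that of the point estimate for Tfap2c, and the difference between these genes was not tested. Gata1 had 25.0 ± 3.33 FPKM in Med13-MO embryos and 25.4 ± 2.57 FPKM in Scr-MO embryos. Gata4 had 26.6 ± 2.67 FPKM in Med13-MO embryos and 21.8 ± 6.34 FPKM in Scr-MO embryos, and neither was called. Of 12 inner cell mass genes, 6 were tested and 2 were called in opposite directions, again against 17.1% of all genes; with so few genes tested, neither share is a result about its list. Nanog had 2.83 ± 0.382 FPKM in Med13-MO embryos and 4.69 ± 0.544 FPKM in Scr-MO embryos (limma adjusted p = 0.0205), and Pou5f1 had 4.35 ± 0.728 FPKM in Med13-MO embryos and 2.07 ± 1.14 FPKM in Scr-MO embryos (limma adjusted p = 0.0239). Each of these 2 calls was lost in 3 of 8 fits with 1 library omitted, those without Med13-MO library 2, Scr-MO library 3 and either Med13-MO library 3 (Nanog) or Med13-MO library 1 (Pou5f1).

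**Figure D4:**
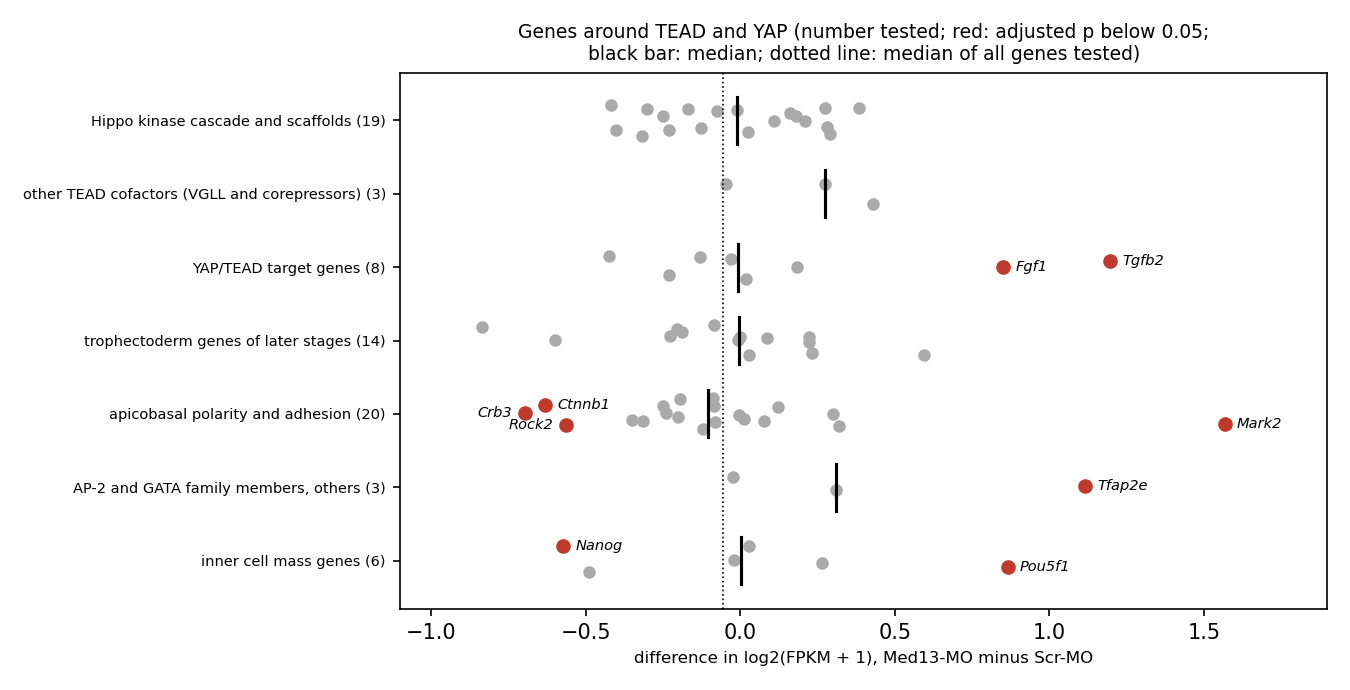
Difference in log2(FPKM + 1), Med13-MO minus Scr-MO (horizontal axis), for each tested gene of 7 lists around TEAD and YAP (rows, with the number tested); red points have an adjusted p below 0.05, black bars are list medians and the dotted line is the median of all genes tested. Called genes lie on both sides of 0. The rows of Hippo kinases, TEAD cofactors and trophectoderm genes have 0 called genes, against 17.1% of all genes tested.

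Likeness across the 8 libraries was measured as the root mean square difference of centred log2(FPKM + 1) values. The genes nearest to Tead4 were Skp2 (0.118), Pgam5 (0.121) and Lcorl (0.132), where Tead4 itself varied by 0.534 around its mean. Skp2 had a mean of 15.3 FPKM in Med13-MO embryos and 27.8 FPKM in Scr-MO embryos. The nearest to Tead1 were Golgb1, Cand2 and Nrbp1, and to Tead2 Atp6v1g1, Pls3 and Dlc1. Nearest to Yap1 were Tmem57, Fcamr and Tmf1, and to Wwtr1 Tmsb10, Fbrsl1 and Cops5. Tfap2c varied most like Hnrnpa2b1 and the ribosomal protein genes Rps10 and Rpl27. Gata3 varied most like Nr2f1 (0.115), Akr1a1 and Bcas3os1, and Nr2f1 had a mean of 0.571 FPKM in Med13-MO embryos and 2.00 FPKM in Scr-MO embryos. Most of the variation of Gata3 around its mean lay in Scr-MO library 2, with 6.82 FPKM against 0.690 to 1.67 FPKM elsewhere. Likeness to Gata3 therefore rests largely on that library and is not a group difference.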

How the data were processed

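Per the labels' protocols, 40 embryos went into each of 4 collections per group, their RNA was amplified (Ovation RNA-Seq System V2), and 400 ng of cDNA went into each TruSeq library. The authors deposited 1 table of FPKM values per Ensembl transcript. BWA and mm10 are named in the submitters' processing notes, while no source used here gives the counting tool, the annotation release or the use of strand. In 3758 rows, all with a hyphen in the symbol, the deposited column of Scr-MO library 1 holds text (recorded as another kind of value) and the values are moved by 1 column; these rows were left out and hold none of the 10 genes. Each column carries the number of 1 sample's title, and 0 were unmatched.

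Rows were summed per symbol, and the 11755 genes averaging 1 FPKM or more were fitted on the log2(FPKM + 1) scale by limma 3.58.1 (R 4.3.3; mean-variance trend, two-sided, Benjamini-Hochberg adjustment over all genes). Fold changes on that scale understate the change of low genes. The 3 members below the limit were fitted in the same way with no limit. Single rows were fitted over 21052 rows. Tests of 1 value were exact permutation tests over 70 assignments. Low values were multiples of 0.5 fragments within 0.005 for 94.3% to 94.5% of values of up to 20 fragments, which gave the library totals; intervals and floors cover counting error only. Loci and biotypes are from GENCODE M21 (GRCm38), which matched 98.7% of rows. No source used here says how the authors assigned reads shared by isoforms or paralogues. The scripts were tested on simulated data.

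The members and gene lists were chosen with earlier results of these data known. Besides the 10 genes and Med13, the text names, per list, called genes (at most 6 by smallest adjusted p) or, with fewer than 2 called, the 2 most abundant, and the 3 nearest genes of each tested member. A listed trophectoderm gene is not reported here, and the counts of its list leave it out. Lats1, Lats2, Ctgf, Ankrd1 and Birc5 were named after their values were seen. Alternatives were other pseudocounts, limits, scalings, row choices, weights, voom, realigned rows and leaving out each library.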

Additional observations from a re-analysis of the deposited data

Results flagged for a closer look

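Gata3 was flagged in both groups because 1 library stood far from the other 3. In Med13-MO embryos library 3 had 1.19 FPKM, and the next highest had 0.745 FPKM. In Scr-MO embryos library 2 had 6.82 FPKM, and the next highest had 1.67 FPKM. These were 2 of the 20 groups examined, 2 for each of the 10 genes, and chance flags about 1 in 20. Leaving out each library in turn kept the Gata3 log2 fold change between -0.92 and -0.67 where the gene stayed in the fit, with limma adjusted p between 0.114 and 0.318. That range leaves out the flagged Scr-MO library 2. Without it the gene fell under the limit of the main test, with a mean of 0.985 FPKM over the 7 libraries. The fit with no lower limit then gave a log2 fold change of -0.24 (limma adjusted p = 0.463), so the size of the Gata3 estimate rested on that library.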

How the results depend on the processing

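Against 2010 called genes in the main comparison, 1012 were called with no lower limit, 1137 with a mean of at least 5 FPKM, 4336 with sample weights and 956 to 2404 when 1 library was left out. Tead4 was called under all 20 alternatives, with log2 fold changes of -1.06 to -0.80 and limma adjusted p of 0.0006 to 0.0396. Tead1 kept its direction but lost its call with no lower limit (-0.59, adjusted p = 0.123), with the main transcript only (-0.37, 0.0920), with protein-coding rows (-0.47, 0.123), with voom (-0.68, 0.0558) and in 7 of 8 fits without 1 library (leave-one-out range -0.74 to -0.44). Tead2 was called with sample weights (-0.48) and turned to 0.0317 without the Med25 row, an alternative chosen after seeing the data. Tead3 passed with a pseudocount of 0.1 (-1.16) or 0.5 (-0.69), with no trend (-0.47), with sample weights (-0.44) and with voom (-1.74). Tead3 also passed with the main transcript only (-0.52), which for this gene is the retained-intron row. With protein-coding rows Tead3 did not pass (-0.0169, limma adjusted p = 0.804). Nor did it pass with median-ratio scaling, quantile normalization or realigned rows, or in any fit without 1 library (limma adjusted p 0.0593 to 0.138). Uncalled genes turned sign as follows: Wwtr1 to -0.10 with sample weights and -0.0509 without Med13-MO library 4 (leave-one-out range -0.0509 to 0.24), Tfap2a to -0.0023 with quantile normalization (leave-one-out range -0.0802 to 0.0905), Cdx2 to 0.000101 without Med13-MO library 1 (-0.0198 to 0.000101), and Med13 to -0.0245 with sample weights and -0.00105 without Scr-MO library 3 (-0.00105 to 0.101). Ncoa3 turned to 0.000126 with median-ratio scaling, 0.0116 with quantile normalization and 0.0358 with the main transcript only. Gata1 turned to 0.0209 with median-ratio scaling, 0.0135 with quantile normalization, 0.0472 with the main transcript only and 0.0121 with voom, and its leave-one-out range was -0.0913 to 0.0730. The Tead4 to Tead2 ratio turned to 0.33 with the main transcript only, where the Tead2 row is the one annotated to Med25. Calls per list moved to 4 (sample weights), 2 (voom) and 0 to 1 (leave-one-out) for the Hippo kinases, to 1 for the TEAD cofactors (no limit, median-ratio scaling, quantile normalization, sample weights), and to 1 (no limit), 3 (sample weights) and 0 to 2 (leave-one-out) for trophectoderm genes. They moved to 2 (no limit) and 1 to 5 (leave-one-out) for polarity genes, to 0 (at least 5 FPKM) for AP-2 and GATA genes, and to 1 (no limit), 0 (at least 5 FPKM) and 0 to 3 (leave-one-out) for inner cell mass genes. Yap1, Tfap2c and Gata3 kept their direction and stayed uncalled under every alternative that could be fitted. Apart from the Tead2 rows, the cause of these changes was not tested. Tead2, Wwtr1 and Gata3 had too low a mean to be fitted at 5 FPKM or more. No paired analysis was run, because the labels give the groups no shared replicate numbers. The sample numbers in the titles alternate between the groups, but no label ties a Med13-MO collection to a Scr-MO collection. Library numbers 1 to 4 are names only. For Cdx2, with 0 to 4 fragments a library, depth limits any statement.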

Other observations

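Some genes of the lists around TEAD and YAP that were under 1 FPKM on average stood apart between the groups; they were singled out after their values were seen. Of 54 such genes, 4 were lower and 6 higher in Med13-MO embryos without overlap, against 6.45% of all genes under 1 FPKM in either direction. Ets2, a transcription factor that trophoblast stem cells need, had 1.71, 1.53, 1.47 and 1.5035 FPKM in Med13-MO libraries and 0.470, 0.0329, 0.334 and 0.149 FPKM in Scr-MO libraries (log2 fold change 1.05, limma with no lower limit, adjusted p = 0.00714). Vgll1, a TEAD-binding cofactor, had 0.131 ± 0.0406 FPKM in Med13-MO embryos and 0.0227 ± 0.0156 FPKM in Scr-MO embryos (adjusted p = 0.0470, limma with no lower limit). The targets known from cultured cells Igfbp3 and F3 were on the other side. Igfbp3 had 0.290 ± 0.0840 FPKM in Med13-MO embryos and 1.43 ± 0.732 FPKM in Scr-MO embryos (limma adjusted p = 0.0493). F3, the tissue factor of blood clotting, had 0.263 ± 0.138 FPKM in Med13-MO embryos and 1.26 ± 0.549 FPKM in Scr-MO embryos (limma adjusted p = 0.0519).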
